A study of Mus musculus with 17 samples.

Results

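The transcripts of 10 basement membrane genes were followed in sorted cardiac fibroblasts (CFs) over the first 6 days after myocardial infarction (MI). The genes were chosen by symbol, as the chains and linkers named type IV collagen, laminin, nidogen and perlecan: *Col4a1*, *Col4a2*, *Lama2*, *Lama4*, *Lamb1*, *Lamb2*, *Lamc1*, *Nid1*, *Nid2* and *Hspg2*. All 10 matched 1 identifier each among the 31053 genes listed. The cells were Col1a1-GFP+/CD31-/CD45- cells from hearts of C57BL/6 mice of the genotype Collagen1a1-GFP+, aged 8 to 10 weeks, in which GFP is driven by regulatory sequence of the *Col1a1* gene, and all 17 libraries came from infarcted hearts, with 3 libraries each at 1, 2, 4 and 6 days post-infarction (dpi), 4 at 3 dpi and 1 at 5 dpi. An uninfarcted group was not analysed here. The sort was set to leave out CD31+ endothelial and CD45+ blood cells, and the values describe transcripts of the sorted fraction and not the membranes themselves. Markers of other cells were still detected, as given below, and their part in the values was not tested.

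Basement membranes are thin sheets of matrix that surround each cardiomyocyte and underlie the endothelium of every vessel. Type IV collagen and laminin form separate networks in them. A laminin is a trimer of an alpha, a beta and a gamma chain, the nidogens bind laminin and type IV collagen, and perlecan is a large heparan sulfate proteoglycan that binds growth factors. Fibroblasts have no basement membrane of their own around most of their surface, but they are a known source of several of these chains in muscle tissues.

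Bulk MARS-seq, which reads the 3′ ends of poly-A transcripts, gave between 8021815 and 22029938 counts per library. Levels are CPM, counts scaled to equal normalized library sizes, and differences are on the log2 scale with the standard error (SE) of the model. Reads lie at 3′ ends and are not divided by transcript length, so levels are compared between days for 1 gene and not between genes. The 10 fibroblast markers summed to 12700 to 38900 CPM and the 12 endothelial markers to 54.4 to 200 CPM. Among the latter, *Cdh5*, *Tie1* and *Cldn5* were at 0 counts in 10, 10 and 12 of 17 libraries and *Pecam1*, *Tek*, *Flt1*, *Egfl7*, *Esam* and *Fabp4* had counts in all 17, *Fabp4* with up to 130.0 CPM. The 8 Schwann cell markers summed to 17.7 to 38.4 CPM, and the 5 erythroid markers to 1.92 to 2390 CPM, highest in 4 dpi replicate 3. Libraries also differed in their counts from *Xist* and from *Uty*, *Kdm5d*, *Ddx3y* and *Eif2s3y*, which lie on the Y chromosome: *Xist* had more counts in 1 library of 1 dpi and in all libraries of 4 and 6 dpi, and the Y-linked genes had more in the other 10.

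*Lamb2* and *Hspg2* were the 2 of the 10 genes called between 3 to 5 and 6 dpi, and their genomic starts are shown for that reason, with those of the pair *Col4a1* and *Col4a2*, whose starts overlap. Positions are on GRCm38, the build of the counting. *Hspg2* (ENSMUSG00000028763), which encodes perlecan, lies on the plus strand at chr4:137468769-137570630, and *Lamb2* (ENSMUSG00000052911), which encodes the laminin β2 chain, on the plus strand at chr9:108479736-108490530. The genes of the α1 and α2 chains of type IV collagen run in opposite directions on chromosome 8, with *Col4a1* on the minus strand at chr8:11198423-11312826 and *Col4a2* on the plus strand at chr8:11312805-11449287, so that 22 bases belong to the first exon of both. The RefSeq promoter sequences given here (GRCm38.p6) stop before the first annotated base of *Hspg2* (chr4:137468553-137468768) and of *Lamb2* (chr9:108479612-108479735), with the letters GGGCGG or their reverse complement, the GC box, in capitals, of which that of *Lamb2* has none. The third sequence is the shared start (chr8:11312801-11312830), with the 22 shared bases in capitals. All 3 are read 5′ to 3′ on the plus strand.
Hspg2 promoter: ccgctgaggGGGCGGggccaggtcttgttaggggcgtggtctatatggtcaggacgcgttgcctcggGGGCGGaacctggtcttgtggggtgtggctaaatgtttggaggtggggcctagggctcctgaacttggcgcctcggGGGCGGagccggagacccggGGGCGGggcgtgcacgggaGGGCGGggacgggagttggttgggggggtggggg
Lamb2 promoter: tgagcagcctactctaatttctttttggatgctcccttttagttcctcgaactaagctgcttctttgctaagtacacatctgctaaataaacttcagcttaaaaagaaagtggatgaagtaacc
Col4a2 and Col4a1 starts: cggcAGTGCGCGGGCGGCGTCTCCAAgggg

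RefSeq held a promoter window of 300 bases, 250 before the start and 50 from it, for 7 of the 10 genes, and *Lama4*, *Lamc1* and *Nid2* had no entry. The window of *Hspg2* held the GC box 5 times, that of *Col4a2* 3 times, that of *Lamb1* 2 times, and those of *Col4a1*, *Lama2* and *Nid1* 1 time each, counting both strands. The windows of *Col4a1* and *Col4a2* overlap, and the 1 GC box of *Col4a1* lies in their 22 shared bases, so it is also 1 of the 3 of *Col4a2*. *Lamb2* had none, and 35.7% of all 32851 promoter windows held at least 1. The base composition differed in the same way, with 70.3% G or C in the *Hspg2* window and 44.0% in the *Lamb2* window. The letters CCAAT, found in 37.4% of all windows, occurred 1 time each in those of *Col4a1*, *Col4a2*, *Lamb1* and *Nid1*. The letters CTCCTCC, in 18.0% of all windows, occurred in those of *Col4a1*, *Lamb2* and *Nid1*, CAGACA, in 21.0%, in that of *Lamb2* alone among the 7, and TATAAA, in 13.6%, in none of the 7.

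Over the whole time course, the day means of a gene spanned 0.40 to 1.50 on the log2 scale, with a median of 0.74, against a median span of 1.14 over the 14030 genes tested. *Lamb2*, *Hspg2* and *Nid1* spanned more than that median. The single 5 dpi library counted as a day mean in these spans. For *Nid1* it was the lowest day (log2 CPM 8.25), followed by 6 dpi (8.71), with 2 dpi the highest (9.48), so its span rests on that library. This is a description with no test, in which genes of other abundance were not set apart, and each of the 10 had at least 380 counts in every library. Only *Lamb2* passed the test of a difference between any days (adjusted p = 0.034, edgeR), that is 1 of 10 where 15.0% of all genes tested passed, and *Hspg2* followed (adjusted p = 0.055). The *Lamb2* call was lost without any 1 of 7 libraries (1 dpi replicates 1 and 2, 3 dpi replicate 1, 4 dpi replicates 1 and 2, and 6 dpi replicates 1 and 2).

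**Figure D1:**
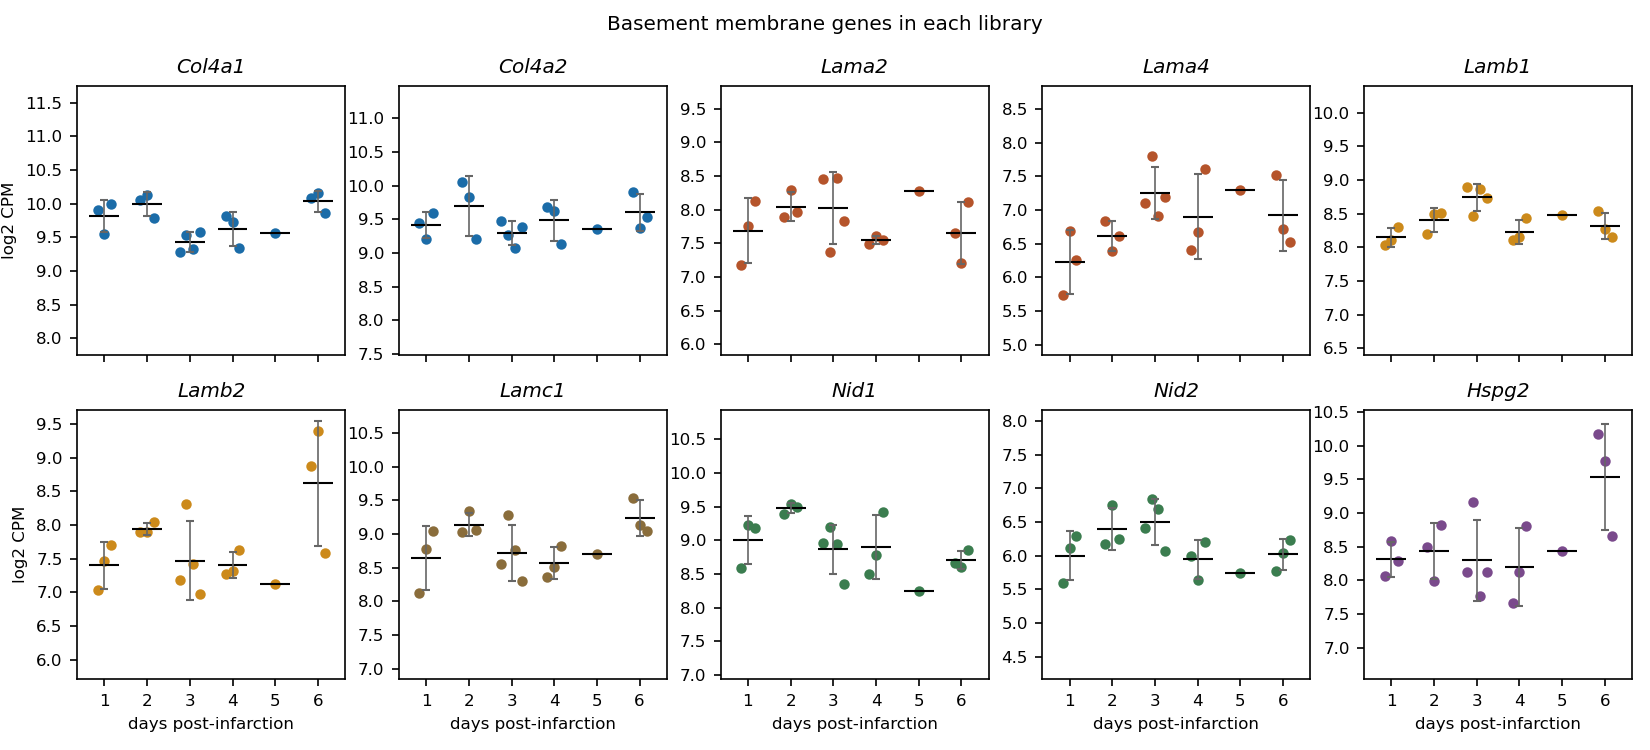
Level of each of the 10 genes in every library, as log2 CPM against days post-infarction, with a point per library, a line at the day mean and bars of 1 SD where a day has more than 1 library. Each panel spans 4 log2 units around the mean of its gene. *Lamb2* and *Hspg2* reach their highest levels in 2 of the 3 libraries of 6 dpi, while the third lies among the libraries of other days.

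*Col4a1* and *Col4a2* encode the α1 and α2 chains that assemble into the most widespread type IV collagen trimer. *Col4a1* stood at 958, 745 and 1015 CPM at 1 dpi, at 1063, 1120 and 882 CPM at 2 dpi, at 624, 740, 643 and 764 CPM at 3 dpi, at 903, 845 and 648 CPM at 4 dpi, at 754 CPM at 5 dpi and at 1083, 1144 and 929 CPM at 6 dpi. The 4 libraries of 3 dpi all lay below the 3 of 2 dpi, and the 8 libraries of 3 to 5 dpi all lay below the 3 of 6 dpi. The fitted difference of 3 against 2 dpi was -0.56 (SE 0.22, adjusted p = 0.18), and that of 3 to 5 against 6 dpi -0.49 (SE 0.21, adjusted p = 0.13), so neither passed the test in edgeR. With DESeq2 the second passed (-0.52, adjusted p = 0.028). *Col4a2* was flatter, with day means from 632 ± 74.6 CPM (SD, n = 4) at 3 dpi to 856 ± 241 CPM (SD, n = 3) at 2 dpi, and neighbouring days overlapped throughout their order.

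The laminin α chains decide which receptors a laminin binds: *Lama2* encodes the α2 chain of the laminins around muscle fibres, and *Lama4* the α4 chain of vessel laminins. *Lama4* stood at 53.2, 103 and 76.4 CPM at 1 dpi, at 114, 84.1 and 98.0 CPM at 2 dpi, at 138, 224, 120 and 146 CPM at 3 dpi, at 85.0, 102 and 196 CPM at 4 dpi, at 157 CPM at 5 dpi and at 183, 105 and 92.3 CPM at 6 dpi. All 4 libraries of 3 dpi lay above all 6 of 1 and 2 dpi, while 2 libraries of 4 dpi and 2 of 6 dpi lay within the early range. The share of all genes with that split was not computed, and libraries of 2 and 3 dpi alone did not overlap in 18.6% of all genes. *Lama2* had its highest day mean in the single 5 dpi library (311 CPM) and its lowest at 4 dpi (187 ± 7.45 CPM, SD, n = 3), and its libraries of 3 dpi spread from 165 to 356 CPM. Neither chain passed the test over the whole course (adjusted p = 0.20 for *Lama4* and 0.50 for *Lama2*, edgeR).

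The β chains *Lamb1* and *Lamb2* are alternatives in the laminin trimer, β1 being the widespread form and β2 the form enriched at vessel walls and synapses, and *Lamc1* encodes the γ1 chain that most laminins contain. *Lamb1* rested within 262 and 476 CPM over all 17 libraries, with its highest day mean at 3 dpi (431 ± 56.7 CPM, SD, n = 4). *Lamb2* stood at 130, 176 and 209 CPM at 1 dpi, at 237, 237 and 264 CPM at 2 dpi, at 145, 317, 172 and 125 CPM at 3 dpi, at 155, 159 and 197 CPM at 4 dpi, at 139 CPM at 5 dpi and at 470, 671 and 192 CPM at 6 dpi. Replicates 1 and 2 of 6 dpi were the highest of all 17 libraries, whereas replicate 3 lay below all 3 libraries of 2 dpi. *Lamc1* had its highest day mean at 6 dpi (611 ± 117 CPM, SD, n = 3) and its lowest at 4 dpi (382 ± 65.0 CPM, SD, n = 3), and its neighbouring days overlapped.

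The nidogens link the laminin and collagen networks. *Nid1* stood at 385, 602 and 580 CPM at 1 dpi, at 672, 742 and 724 CPM at 2 dpi, at 498, 589, 493 and 327 CPM at 3 dpi, at 361, 438 and 686 CPM at 4 dpi, at 305 CPM at 5 dpi and at 405, 389 and 465 CPM at 6 dpi. Its level was highest at 2 dpi, where all 3 libraries lay above the 3 of 1 dpi and the 4 of 3 dpi. Libraries of 1 and 2 dpi did not overlap in 15.1% of all genes. Of the 4 dpi libraries, 1 reached the range of 2 dpi. *Nid2* had its highest day mean at 3 dpi (92.6 ± 21.0 CPM, SD, n = 4) and its lowest in the single 5 dpi library (53.7 CPM). *Nid2* shares 437 exon bases with *Rtraf* on the opposite strand, and no strand setting is given for the counting, so reads of *Rtraf* in those bases cannot be told apart from those of *Nid2*.

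Perlecan, encoded by *Hspg2*, stood at 267, 384 and 313 CPM at 1 dpi, at 361, 256 and 454 CPM at 2 dpi, at 279, 574, 218 and 281 CPM at 3 dpi, at 202, 281 and 449 CPM at 4 dpi, at 346 CPM at 5 dpi and at 1159, 876 and 406 CPM at 6 dpi. As for *Lamb2*, replicates 1 and 2 of 6 dpi were the highest libraries, and replicate 3 lay within the range of 2, 3 and 4 dpi. Replicate 2 of 3 dpi was the third highest library for both genes.

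The series was made to time the appearance of reparative CFs. The study singled out 3 to 5 dpi on these libraries, on published bulk libraries of healthy and infarcted hearts, and on staining of the protein CTHRC1. The first comparison set that window against 1 and 2 dpi. None of the 10 genes passed the test in edgeR, where 7.48% of all genes tested did. *Lama4* was 1.67 times as high in the window (log2 difference 0.74, SE 0.24, adjusted p = 0.071) and 6 of its 8 window libraries lay above all 6 early ones. *Nid1* stood at 0.681 times its early level (log2 difference -0.55, SE 0.20, adjusted p = 0.11), and *Col4a1* at 0.777 times (log2 difference -0.36, SE 0.17, adjusted p = 0.23). With DESeq2 the call was made for 2 genes, *Lama4* (0.76, adjusted p = 0.031) and *Nid1* (-0.54, adjusted p = 0.049). For *Nid1* it was also made in edgeR without 3 dpi replicate 2 (adjusted p = 0.046) or without 4 dpi replicate 3 (adjusted p = 0.030). Without the single 5 dpi library the *Nid1* difference shrank to -0.33.

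The other 7 genes had differences between -0.32 for *Lamb2* and 0.21 for *Lamb1*, with standard errors from 0.16 to 0.28 on the log2 scale. The difference was 0.08 for *Lama2*, -0.03 for *Hspg2*, -0.14 for *Nid2*, -0.20 for *Col4a2* and -0.24 for *Lamc1*. The median over the 10 genes was -0.17, against 0.00 over all genes tested, and in none of the 10 did the window and the early libraries separate fully, as they did in 2.31% of all genes. Markers of other cells moved between the same groups: 5 of 10 mural cell markers were called higher in the window, with a summed level of 46.7 to 94.7 CPM before and 113 to 242 CPM in it. Of the 8 macrophage and leukocyte markers tested, 3 were called higher, with the sum of all 10 going from 8.77 to 33.4 CPM up to 20.9 to 229 CPM with *Ptprc*, the gene of CD45, and *Adgre1* at 0 in 12 of 17 libraries each and *Lyz2* at up to 124 CPM. Mural cells lay basement membrane themselves, fewer cells of a type and less RNA per cell cannot be told apart in bulk RNA, and the part of these cells in the values was not tested.

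**Figure D2:**
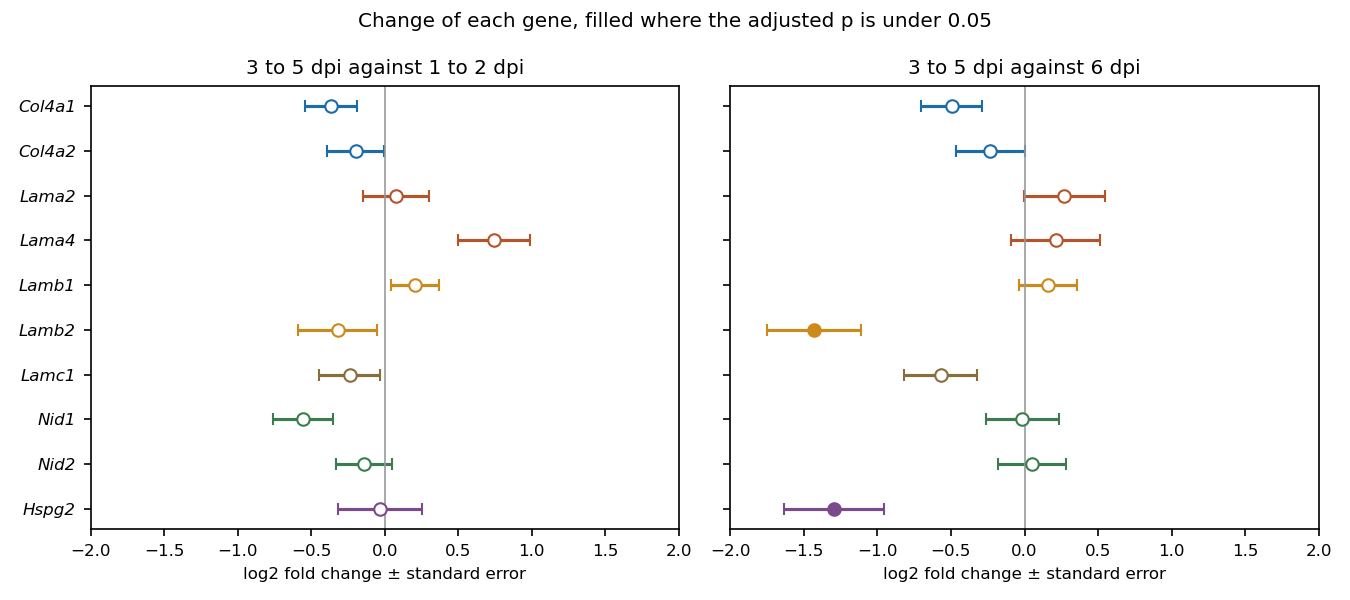
Log2 fold change of each of the 10 genes in 3 to 5 dpi against 1 to 2 dpi (left) and against 6 dpi (right), with bars of 1 standard error and filled points where the adjusted p was under 0.05. No point is filled on the left, and on the right those of *Lamb2* (-1.43) and *Hspg2* (-1.30) are.

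Against 6 dpi, 2 of the 10 genes were lower in the window, where 11.5% of all genes tested were called in either direction. *Lamb2* stood 2.69 times as high at 6 dpi as at 3 to 5 dpi (log2 difference -1.43, SE 0.32, adjusted p = 0.0086, edgeR), and *Hspg2* 2.46 times (log2 difference -1.30, SE 0.34, adjusted p = 0.020). In both genes 6 of the 8 window libraries lay below all 3 of 6 dpi. The third highest difference in size was that of *Lamc1* (-0.57, SE 0.25, adjusted p = 0.14), so the 3 genes with the largest differences were 2 laminin chains and perlecan. Beside *Col4a1*, given above, the remaining differences were 0.27 for *Lama2*, 0.21 for *Lama4*, 0.16 for *Lamb1*, 0.05 for *Nid2*, -0.01 for *Nid1* and -0.23 for *Col4a2*, with standard errors up to 0.30. The median was -0.12 over the 10 genes and 0.01 over all genes, and in 1 gene, *Col4a1*, the groups did not overlap, as in 8.92% of all genes.

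The 6 dpi calls rest on replicates 1 and 2 of that day. Without replicate 2, *Lamb2* was no longer called (-1.01, adjusted p = 0.12), and *Hspg2* was called neither without replicate 1 (-0.95, adjusted p = 0.16) nor without replicate 2 (-1.24, adjusted p = 0.097). The *Hspg2* call was also lost in a fit of only the days compared (-1.30, adjusted p = 0.056) and with a replicate block (-1.26, adjusted p = 0.05). Without replicate 3 the differences were larger, -1.79 for *Lamb2* and -1.62 for *Hspg2*. Replicate 2 of 6 dpi also had the highest sum of the 8 mesothelial markers, 697 CPM against 30.5 to 348 CPM in the other 16 libraries, with *Msln* at 304 CPM and *Upk3b* at 132 CPM, and replicates 1 and 3 had 111 and 94.9 CPM. Of these 8 markers 1, *Msln*, was called higher at 6 dpi. Cardiomyocyte markers were higher as well, with 8 of the 9 tested called and a sum of all 10 of 128, 322 and 208 CPM in replicates 1, 2 and 3, against 10.4 to 103 CPM in the window. Their largest genes were *Myl2*, at up to 79.0 CPM, and *Mb*, at up to 59.7 CPM, and *Ryr2* was at 0 in 10 of 17 libraries. Within 6 dpi, *Lamb2* and both sums were highest in replicate 2, and *Hspg2* was highest in replicate 1. *Lamb2*, *Hspg2* and the mesothelial sum were lowest in replicate 3, and the cardiomyocyte sum was lowest in replicate 1. These orders are of 3 libraries only. The part of these cells in the differences was not tested.

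**Figure D3:**
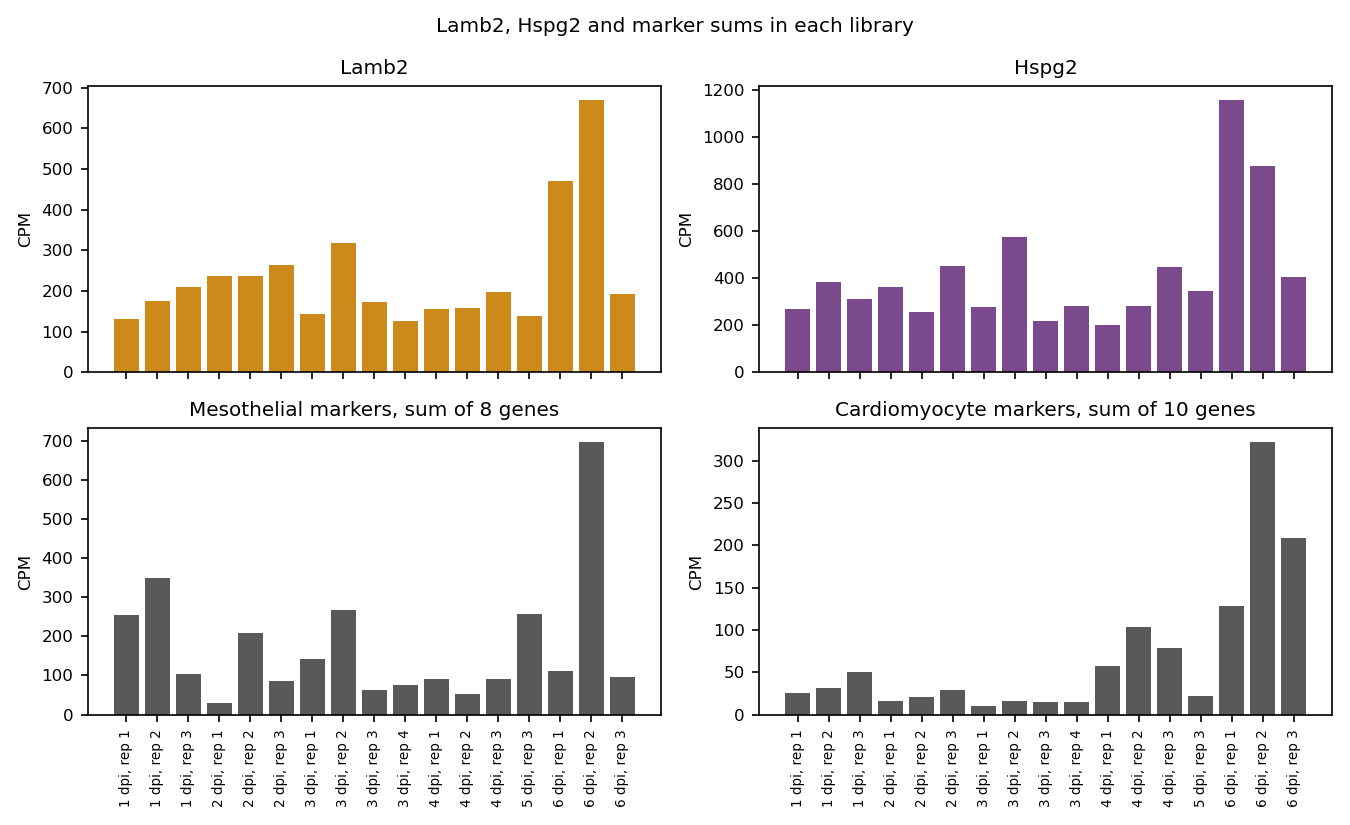
*Lamb2*, *Hspg2*, the sum of 8 mesothelial markers and the sum of 10 cardiomyocyte markers in each of the 17 libraries, as bars in CPM from 0, ordered by days post-infarction and replicate (rep). *Lamb2* and *Hspg2* are high in replicates 1 and 2 of 6 dpi and not in replicate 3, the mesothelial sum is high in replicate 2 alone, and the cardiomyocyte sum is above the other libraries in all 3.

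The libraries of 4 and 6 dpi both had more *Xist* than Y-linked counts, so the step between these days was free of that difference. From 4 to 6 dpi none of the 10 genes was called in edgeR, where 0.513% of all genes were. *Lamb2* was 2.61 times as high at 6 dpi (log2 difference 1.38, SE 0.38, adjusted p = 0.081) and *Hspg2* 2.62 times (1.39, SE 0.40, adjusted p = 0.089), with 2 of 3 libraries of 6 dpi above all of 4 dpi in each. DESeq2 called both, with 1.42 for *Lamb2* (adjusted p = 0.010) and 1.42 for *Hspg2* (adjusted p = 0.015), and so did edgeR without 6 dpi replicate 3 or without 3 dpi replicate 2. *Lamc1* differed by 0.68 (SE 0.29, adjusted p = 0.21) and *Col4a1* by 0.40 (SE 0.24, adjusted p = 0.37). From 1 to 6 dpi, *Lamb2* (1.37, SE 0.38, adjusted p = 0.024) and *Hspg2* (1.34, SE 0.40, adjusted p = 0.036) were called in edgeR, where 12.1% of all genes were. Replicates 2 and 3 of 1 dpi had more Y-linked than *Xist* counts and all libraries of 6 dpi the reverse, so day and this pattern are partly confounded there. Both calls of that comparison were lost without replicate 1 or 2 of 1 dpi or without replicate 1 or 2 of 6 dpi, and that of *Hspg2* also without replicate 3 of 1 dpi. These comparisons share the libraries of 6 dpi.

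The steps between single days brought no call among the 10 genes. From 1 to 2 dpi all 10 estimates were positive, from 0.15 for *Hspg2* to 0.52 for *Lamb2* with a median of 0.33. Over all genes tested 51.3% were positive, with a median of 0.01. The 10 estimates come from the same libraries and are not independent. No gene of the 10 passed in edgeR (lowest adjusted p = 0.83, none with an unadjusted p under 0.05), in a step where 0.178% of all genes passed. Replicate 1 of 1 dpi, which has the fewest counts of all libraries, was the lowest library of that day in 8 of the 10 genes. It is also the only library of 1 dpi with more *Xist* (1670) than Y-linked (84) counts. From 2 to 3 dpi, where 2.94% of all genes passed, the largest differences were 0.67 for *Lama4* (SE 0.33, adjusted p = 0.28) and -0.58 for *Nid1* (SE 0.26, adjusted p = 0.24). The libraries of the 2 days did not overlap in 3 genes, *Col4a1*, *Lama4* and *Nid1*, and in 18.6% of all genes. From 3 to 4 dpi 2.71% of all genes passed. Among the 10 genes the lowest adjusted p-values in edgeR were those of *Lamb1*, with a difference of -0.52 (SE 0.21, adjusted p = 0.21), and *Nid2*, with -0.57 (SE 0.25, adjusted p = 0.23). All libraries of 3 dpi had more Y-linked than *Xist* counts and all of 4 dpi the reverse, so day and this pattern cannot be told apart here. DESeq2 called none of the 10 in these 3 steps.

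A basement membrane changes its make-up when related chains replace each other, so ratios of related chains were compared within libraries. The ratio of *Lamb1* to *Lamb2* gave the largest shift. It had a mean log2 ratio of 0.60 ± 0.23 (SD, n = 6) at 1 to 2 dpi, 1.11 ± 0.55 (SD, n = 8) at 3 to 5 dpi and -0.30 ± 0.85 (SD, n = 3) at 6 dpi. At 6 dpi the 3 libraries read -0.34, -1.12 and 0.57, so replicates 1 and 2 had the lowest ratios of all 17 libraries. The window ratio was 2.66 times that of 6 dpi (log2 difference 1.41, exact permutation p = 0.012, two-sided), and 7 of 8 window libraries lay above all 3 of 6 dpi. Adjusted over the 8 ratio tests the p was 0.079, and the smallest p that 8 against 3 libraries allow is 0.0061.

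The ratio of *Nid1* to *Nid2* was 0.736 times as high in the window as before it (early 3.04 ± 0.19, SD, n = 6, window 2.599 ± 0.373, SD, n = 8, in log2, exact permutation p = 0.026), and 6 of 8 window libraries lay below all early ones. Without the 3 dpi libraries that difference was -0.20 in place of -0.44 in log2. This ratio carries the limit given above for *Nid2*, whose reads cannot be told apart from those of *Rtraf* in their shared bases. The ratio of *Lama4* to *Lama2* was 1.62 times as high in the window (early -1.44 ± 0.37, SD, n = 6, window -0.75 ± 0.69, SD, n = 8, in log2, exact permutation p = 0.044), and the SD in the window exceeded the SD before it. The ratio of *Col4a1* to *Col4a2*, whose products join in 1 trimer, differed in the window by -0.20 against the early days (exact permutation p = 0.053) and by -0.29 against 6 dpi (exact permutation p = 0.042). For *Lamb1* to *Lamb2* the window against the early days differed by 0.51 (exact permutation p = 0.059). Adjusted over the 8 tests these 5 p-values also came to 0.079, so no ratio passed. The last 2 differences, against 6 dpi, were -0.01 for *Lama4* to *Lama2* and -0.09 for *Nid1* to *Nid2* (adjusted p = 0.99 and 0.78, exact permutation).

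**Figure D4:**
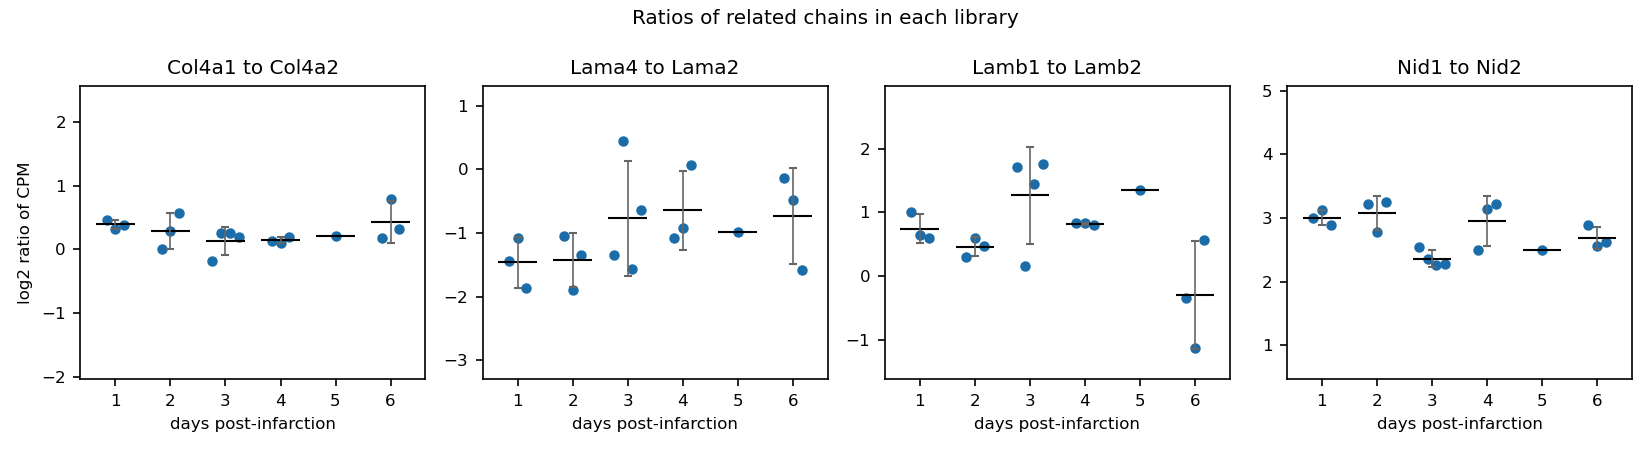
Log2 ratio of CPM of 4 pairs of related chains in every library against days post-infarction, with a point per library, a line at the day mean and bars of 1 SD, each panel spanning the same number of log2 units. The *Lamb1* to *Lamb2* ratio falls below 0 in 2 of the 3 libraries of 6 dpi, and replicate 3 of that day lies above 0.

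Likeness between genes was described by Pearson's r of log2 CPM over the 17 libraries, which share days, depth and composition, and no p is given. *Lamb2* and *Hspg2* were each other's closest member (r = 0.85), and *Lamc1* was closest to *Lamb2* (r = 0.79). The 2 type IV collagen genes were each other's closest as well (r = 0.70), as were the 2 nidogens (r = 0.61). *Lama2* and *Lamb1* were closest to each other (r = 0.59), and *Lama4* was closest to *Lamb1* (r = 0.53). *Col4a1* and *Lamb1* ran most against each other (r = -0.50). Among 8908 other genes with a mean of at least 100 counts, the most alike was *Fxyd1* for *Lamb2* (r = 0.94), *Chrd* for *Lamc1* (r = 0.90), *Usf2* for *Col4a1* (r = 0.89), *Ctsl* for *Lama2* (r = 0.88), *Snx15* for *Lama4* (r = 0.90), *Pcnt* for *Lamb1* (r = 0.88), *Enpp2* for *Nid1* (r = 0.89) and *Fut8* for *Nid2* (r = 0.84).

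The partners of these 10 genes were read from 5 lists of other basement membrane genes. In the window against the early days, 13 of the 67 tested passed in edgeR, 12 of them higher, where 7.48% of all genes passed in either direction. A count of 1 of 13 or 1 of 10 in a list is near that share. Of 16 other basement membrane proteins 4 were higher: *Col18a1*, which encodes the collagen that carries endostatin (0.97, SE 0.19, adjusted p = 0.0022), *Agrn*, the proteoglycan agrin (0.79, SE 0.22, adjusted p = 0.028), *Sparc*, a collagen-binding matricellular protein (0.73, SE 0.21, adjusted p = 0.034), and *Frem1* (1.97, SE 0.51, adjusted p = 0.020), which had at most 5.65 CPM. *Col18a1* went from 18.3 to 36.4 CPM over the 6 early libraries up to 30.6 to 58.8 CPM in the window and 70.5 to 87.8 CPM at 6 dpi, and 7 of 8 window libraries lay above all early ones. Over the whole course *Fbln1*, the gene of fibulin-1, passed too (adjusted p = 0.0069).

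Among 12 genes for the assembly of type IV collagen 3 were higher in the window. *Loxl2*, whose enzyme crosslinks the collagen network, rose by 1.74 (SE 0.23, adjusted p = 4.7e-05), with 7 of 8 window libraries above all early ones. *Pxdn*, the gene of peroxidasin, which forms the sulfilimine bonds between type IV collagen molecules, rose by 0.68 (SE 0.17, adjusted p = 0.015), and *P4ha2*, a prolyl hydroxylase subunit, by 0.60 (SE 0.18, adjusted p = 0.045). *Loxl2* and *P4ha2* also act on fibrillar collagens.

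Of 16 receptor genes 3 were higher and 1 lower. *Itga1* and *Itga7*, the integrin α1 and α7 chains that bind collagen and laminin, were higher by 0.70 (SE 0.19, adjusted p = 0.026) and 0.88 (SE 0.24, adjusted p = 0.027), and *Sdc1*, the gene of the proteoglycan syndecan-1, by 0.83 (SE 0.25, adjusted p = 0.046). *Ddr2*, a collagen receptor of fibroblasts, was lower by -1.01 (SE 0.19, adjusted p = 0.0016), with all 8 window libraries below all 6 early ones. *Bcam*, whose product binds laminin α5, passed over the whole course (adjusted p = 0.0077) with its highest level, 110 CPM, in replicate 2 of 6 dpi, the library with the highest mesothelial sum, against 34.7 and 18.1 CPM in replicates 1 and 3.

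Of 13 proteases and inhibitors 1 was higher, *Mmp14*, a membrane-bound metalloproteinase (0.67, SE 0.20, adjusted p = 0.047), and *Mmp2*, *Mmp3* and *Timp2* passed over the whole course (adjusted p = 0.021, 0.0071 and 0.038). Of the 10 other type IV collagen and laminin chains 1 was called, *Lama3*, with 0 counts in the 6 early libraries and 37 counts in 6 of the 8 window libraries. No library held more than 17 counts of *Lama3*. None of the early ones reached the 10 counts of the filter, so the gene was tested only through days at which it was high. Its call carries no support. Whichever of the 17 libraries was left out, the calls of *Col18a1*, *Loxl2* and *Ddr2* were kept. That of *Pxdn* was lost without 1 dpi replicate 2, and each of the other 9 was lost without any 1 of 3 to 14 libraries. With the libraries of higher *Xist* than Y-linked counts left out, the calls of 7 genes were lost (*Agrn*, *Sparc*, *Frem1*, *Itga1*, *Itga7*, *P4ha2* and *Mmp14*).

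Against 6 dpi, 13 of the same 67 genes passed in edgeR, 8 of them higher at 6 dpi, where 11.5% of all genes passed. *Fbln1* was lower in the window (-1.78, SE 0.31, adjusted p = 0.0021), with all 8 window libraries below all 3 of 6 dpi, and its call was the only one of the 13 that held whichever library was left out. *Itga7* (-1.18, SE 0.28, adjusted p = 0.013) and *Bcam* (-1.92, SE 0.45, adjusted p = 0.011), both laminin receptors, were lower too, and both calls were lost without 6 dpi replicate 2, where the differences were -0.92 for *Itga7* and -0.89 for *Bcam*. *Mmp2*, a gelatinase that cleaves type IV collagen (-1.08, SE 0.23, adjusted p = 0.0064), and *Timp2*, which encodes an inhibitor of it (-0.69, SE 0.22, adjusted p = 0.045), were lower in the window, and *Mmp3* was higher (2.20, SE 0.57, adjusted p = 0.019). *Loxl2* was higher in the window than at 6 dpi as well as before it (1.32, SE 0.29, adjusted p = 0.0072), and so were *Sdc1* (1.197, SE 0.32, adjusted p = 0.022) and *P4ha2* (0.72, SE 0.23, adjusted p = 0.044). The calls of *Loxl2*, *Mmp3* and *Sdc1* were lost without replicate 1 or 2 of 6 dpi, that of *Mmp2* without replicate 1, and those of *P4ha2* and *Timp2* without any 1 of 13 and 12 libraries. The last 4, named after their values were seen, were *Col4a4*, *Lamb3* and *Itga3*, lower in the window, and *P4hb*, higher.

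**Figure D5:**
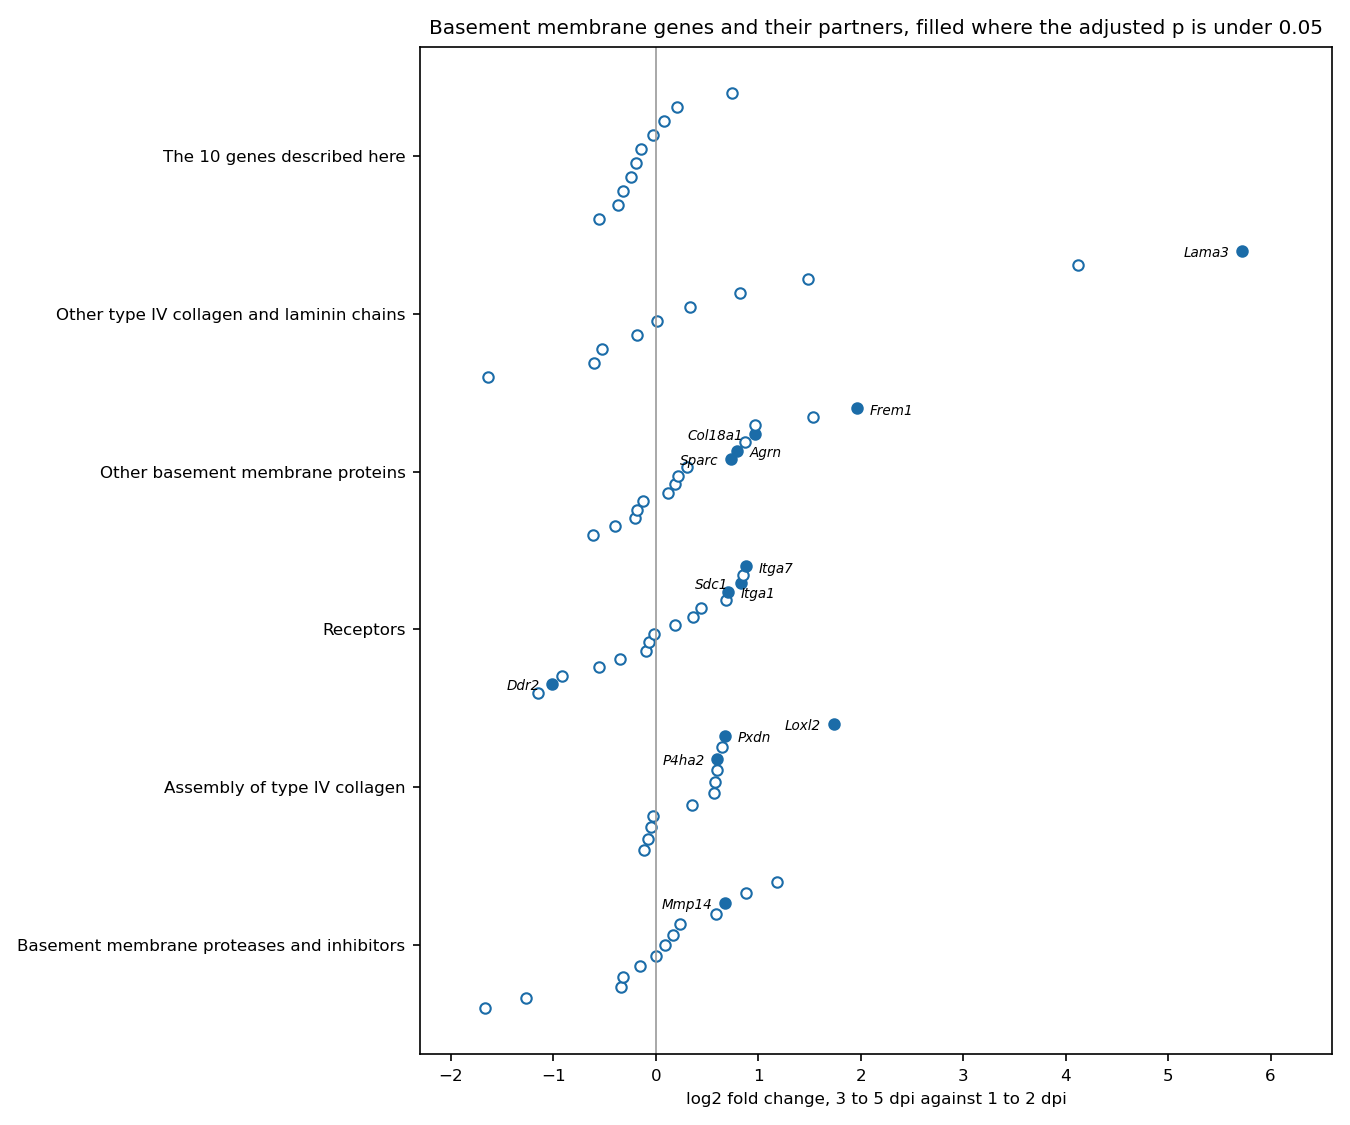
Log2 fold change of 3 to 5 dpi against 1 to 2 dpi for the 10 genes described here and for the 5 lists of other basement membrane genes, with a point per gene, sorted within its list, filled and named where the adjusted p was under 0.05. The 10 genes lie between -0.55 and 0.74 with no filled point, and the farthest filled point, *Lama3*, is a gene of at most 17 counts per library whose fitted change depends on the prior count.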

How the data were processed

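RNA of sorted CFs was profiled by bulk MARS-seq in 17 libraries. The authors demultiplexed with bcl2fastq (1.2.4), aligned the reads to mm10 with STAR and deposited raw counts per Ensembl gene from featureCounts; no strand setting is given in the sources used here. Counts were of 3′ ends and were not divided by length. Groups were taken from the labelled day. A gene entered the fit if 3 or more libraries held 10 or more counts of it (14030 of 31053), and edgeR (4.0.16, R 4.3.3) was fitted once over all libraries and days, with TMM sizes and its quasi-likelihood test. Windows were compared as means of day coefficients, with calls at a Benjamini-Hochberg adjusted p under 0.05 over all genes. The log2 CPM levels were made with a prior count of 2, and the fitted differences with the default prior count of edgeR. DESeq2 (1.42.0) was an alternative. Ratios were compared by two-sided exact permutation tests over libraries. The study's methods call the replicates biological, no source used here ties a library to an animal, and p-values measure the spread between libraries. No 2 libraries of a day agreed within sampling noise, and 3 dpi replicate 2 stood farthest from its day. Its squared differences from the others of 3 dpi were 161 to 213 times sampling noise, against 22.9 to 36.1 among those. Replicate 3 stood apart at 4 dpi (98.7 and 124, against 21.8) and at 6 dpi (89.1 and 113, against 48.8). Without 3 dpi replicate 2 the whole-course calls went from 2099 to 3466 genes. Those of 3 to 5 against 6 dpi went from 1619 to 2937. Without 6 dpi replicate 3 they were 2864 and 2606. Tested on simulated data for 3 to 5 against 1 to 2 dpi (13701 genes), the fit called 46 of 100 genes with a log2 change of 1, 83 of 100 with a change of 2 and 8 unchanged genes.

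All 10 genes were named. Partners were counted by list and named where called in 3 to 5 against 1 to 2 dpi or over the whole course, and likeness was searched among genes with a mean of at least 100 counts, where the closest genes of *Col4a2* and *Hspg2* are not reported here. The genes, lists and tests were chosen with earlier results of these data known. The promoter sequences came from RefSeq and gene positions from GENCODE annotation of GRCm38. Figures were drawn with matplotlib (3.10.9).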

Additional observations from a re-analysis of the deposited data

Results flagged for a closer look

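The log2 ratio of *Col4a1* to *Col4a2* at 3 dpi held a library far from the others of its day. Replicate 1 read -0.18, against 0.27, 0.26 and 0.19 in replicates 2, 3 and 4, a gap of 0.833 of the whole range of the 4 libraries. Such a test was made for 14 measures at this day, each with a chance of about 1 in 20 of being picked out.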

How the results depend on the processing

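Of 1666 single-gene values under the alternatives, 1438 changed neither sign nor call, 196 lost a call, 15 gained one and 17 turned direction; except where stated, the cause was not tested. Over the whole course 1 of the 10 genes was called, against 2 with upper-quartile scaling, 2 with DESeq2, 3 among all genes with at least 1 count, 2 where every library had to hold 10 or more counts and 0 with a replicate block. For 3 to 5 against 1 to 2 dpi, 0 became 2 with DESeq2 and 1 with every gene of at least 1 count. For 3 to 5 against 6 dpi, 2 became 1 with the block and 1 in a fit of only the days compared, which has fewer libraries. From 4 to 6 dpi, 0 became 2 with DESeq2 and 2 with every gene of at least 1 count, and from 1 to 6 dpi, 2 became 1 with the block. Leaving out 1 library gave 0 to 2 calls over the whole course, 0 to 1 for the window against the early days, 0 to 3 against 6 dpi, 0 to 2 from 4 to 6 dpi, 0 to 2 from 1 to 6 dpi and 0 in the 3 early steps. With only libraries of more Y-linked than *Xist* counts, the window against the early days gave 0 calls. Same-numbered libraries of different days deviated together little more than others over all genes (mean r = 0.011 over 30 pairs, and -0.005 over 72 others). This mean cannot show an effect shared by few genes, so a pairing by number was seen in it neither way and is not excluded. The 5 dpi library was numbered 3 after its title, while its column carries the number 1. It was not among these pairs, and its place in the block rests on that choice. Without the 3 dpi libraries the difference turned to -0.011 for *Lama2* against the early days and to -0.18 for *Nid2* against 6 dpi, and the ratios against 6 dpi to 0.007 for *Lama4* to *Lama2* and 0.148 for *Nid1* to *Nid2*. Leaving out 1 library, differences that changed sign ranged, against the early days, from -0.074 to 0.183 for *Lama2*, -0.246 to 0.024 for *Nid2* and -0.175 to 0.073 for *Hspg2*; against 6 dpi, from -0.13 to 0.21 for *Nid1* and -0.06 to 0.22 for *Nid2*; and from 1 to 2 dpi, from -0.061 to 0.341 for *Hspg2*. The ratios against 6 dpi ranged from -0.44 to 0.29 for *Lama4* to *Lama2*, from -0.179 to 0.005 for *Nid1* to *Nid2* and from 1.00 to 1.85 for *Lamb1* to *Lamb2*, where the adjusted p was 0.048 without 2 dpi replicate 1 and 0.035 without 3 dpi replicate 2. Against the early days they ranged from -0.26 to -0.15 for *Col4a1* to *Col4a2* (adjusted p = 0.0062 without 2 dpi replicate 1, exact permutation) and from 0.42 to 0.65 for *Lamb1* to *Lamb2* (0.035 without 3 dpi replicate 2). Comparisons with 6 dpi rest on 3 libraries of that day, and the simulated data did not cover them.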
